A study of Mus musculus with 18 samples.

Results

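The genes described here encode the parts of the hemidesmosome and its laminin ligand. There are 9 of them, given by name: Itga6, Itgb4, Itga3, Itgb1, Lama3, Lamb3, Col17a1, Lad1 and Dst. Each was measured by 1 probe set that the annotation gives to that gene alone, out of 23410 probe sets with a gene name on Affymetrix GeneChip Mouse Gene 1.0 ST arrays. All 9 were followed on 18 arrays in 12 groups, and they were chosen with earlier results of these data known.

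The cells were mouse embryonic fibroblasts (E13.5, C57BL/6 background) with a Nanog-GFP reporter and with rtTA at the ROSA locus. All reprogramming cells received a piggyBac transposon with a polycistronic cassette of OCT4, KLF4, MYC and SOX2 linked to mCherry, and 1 µg/mL doxycycline. The low-KLF4 cassette (OKMS) encodes a short KLF4 and the high-KLF4 cassette (OK+9MS) a KLF4 that is longer by 9 N-terminal amino acids. mCherry+ cells were sorted on days 2, 4 and 18, with 1 array per cassette and day, and on day 8, with 2 arrays per cassette. The other groups, with 2 arrays each, were iPSC clones A7 and A9 (low-KLF4), iPSC clones A10 and H10 (high-KLF4), 1A2 mESCs and primary keratinocytes. The keratinocytes came from newborn pups at postnatal day 2 and were grown in defined keratinocyte medium with EGF and cholera toxin. Cultures were passaged on day 8. Sorted mCherry+ cells are a mixture, and the signal is an average over them, so fewer cells of a type and less RNA per cell cannot be told apart. By the study's methods the paired arrays of day 8 cells, mESCs and keratinocytes are separate experiments, and paired iPSC arrays are different clones. MEFs without a cassette were not analysed here.

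A hemidesmosome holds a basal epithelial cell to the basement membrane. Its receptor is integrin α6β4, encoded by Itga6 and Itgb4. Outside the cell it binds laminin-332, whose α3 and β3 chains come from Lama3 and Lamb3. Inside the cell, plectin (Plec) and the epithelial isoform of dystonin, BPAG1e (Dst), tie the receptor to keratin filaments. Collagen XVII (Col17a1) spans the membrane beside the integrin. Ladinin-1 (Lad1) was first described as a protein of the basement membrane zone. Integrin α3β1 (Itga3 and Itgb1) binds the same laminin but connects to actin in focal adhesions. The α6 chain can also pair with β1, and the β1 chain pairs with many α chains and is made by most cell types.

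The genes lie on 6 chromosomes of the mouse genome build GRCm38.p6. Itga6 spans chr2:71786886-71858427 and Col17a1 chr19:47646341-47692042. Itgb4 (chr11:115974725-116008412) and Itga3 (chr11:95044475-95076844) share chromosome 11. Lamb3 (chr1:193294353-193343878), Lad1 (chr1:135818598-135833341) and Dst (chr1:33907888-34308662) are far apart on chromosome 1. Itgb1 and Lama3 lie on separate chromosomes of their own. The Dst locus makes epithelial, neuronal and muscle isoforms, and its probe set does not separate them.

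RefSeq lists promoter windows for 6 of the 9 genes on this build, 9 windows in all, each from 250 bases before a transcription start to 50 bases after it. Lamb3 and Lad1 were called higher in high-KLF4 cells on day 8. Itga3, of the actin-linked receptor, was also higher, by 1.27 on the log2 scale, but missed the threshold (adjusted p = 0.133 from limma). Whether promoter sequence bears on these differences was not tested. The sequences are those of a window of Lamb3, of Lad1 and of Itga3. They read 5′ to 3′ along the gene, and capitals mark matches, on either strand, to GGGCGG (the GC box), TGANTCA (the AP-1 site), CACCTG (an E-box bound by ZEB and SNAIL proteins) or CACACCC (a site of the KLF family).
Lamb3 (chr1:193301993-193302292, plus strand): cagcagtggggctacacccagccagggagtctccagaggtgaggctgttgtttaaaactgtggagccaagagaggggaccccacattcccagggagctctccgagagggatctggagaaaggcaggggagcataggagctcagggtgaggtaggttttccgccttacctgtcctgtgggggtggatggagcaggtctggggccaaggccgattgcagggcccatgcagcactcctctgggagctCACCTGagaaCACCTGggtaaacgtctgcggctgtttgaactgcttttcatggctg
Lad1 (chr1:135818348-135818647, plus strand): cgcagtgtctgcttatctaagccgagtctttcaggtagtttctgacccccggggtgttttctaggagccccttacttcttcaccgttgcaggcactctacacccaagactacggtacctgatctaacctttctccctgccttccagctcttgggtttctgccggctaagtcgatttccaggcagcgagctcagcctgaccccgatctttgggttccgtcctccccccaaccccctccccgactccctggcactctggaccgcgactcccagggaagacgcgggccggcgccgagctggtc
Itga3 (chr11:95076665-95076964, minus strand): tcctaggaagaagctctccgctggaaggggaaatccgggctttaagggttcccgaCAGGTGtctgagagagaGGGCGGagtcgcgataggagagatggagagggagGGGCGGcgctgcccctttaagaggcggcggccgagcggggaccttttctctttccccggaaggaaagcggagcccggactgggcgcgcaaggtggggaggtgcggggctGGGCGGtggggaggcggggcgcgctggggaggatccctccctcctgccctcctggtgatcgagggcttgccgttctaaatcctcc
CACACCC stood in 0 of the 9 windows and in 7.95% of 32851 mouse promoter windows. The Itga3 window shown holds 3 GC boxes and an E-box, the second Itga3 window 1 GC box, and that of Itgb1 1 GC box. Of the 2 Dst windows, 1 holds 4 GC boxes and an E-box, and the other holds 1 E-box. GGGCGG is found in 35.7% of all windows. The Lamb3 window shown has 2 E-boxes, at -6 and 5 from the start, beside a share of 20.2% of all windows with at least 1. The Lad1 window, the Col17a1 window and the other Lamb3 window hold none of these letters. TGANTCA was matched only in the second Itga3 window, and it occurs in 7.81% of all windows. A match of letters is a description of the sequence and not a measured binding site.

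The labels were checked on marker genes. In keratinocytes, 10 of 10 basal keratinocyte markers were higher and 12 of 12 pluripotent cell markers lower than in mESCs (limma, adjusted p under 0.05). All 5 melanocyte markers were also higher, with a summed signal of 7415 to 10108 in keratinocytes and 335 to 511 on the other arrays. The part of these cells in the keratinocyte values below was not tested. The 2 day 8 arrays of a cassette differed far more than other pairs. They differed by 2-fold or more at 1249 (low-KLF4) and 1028 (high-KLF4) named probe sets, against 7 to 68 within the pairs of iPSC clones, mESCs and keratinocytes. The second array was lower than the first at 19 of 19 fibroblast markers in both cassettes. Their summed signal was 59516 and 20118 in low-KLF4 cells and 58380 and 25997 in high-KLF4 cells.

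**Figure D1:**
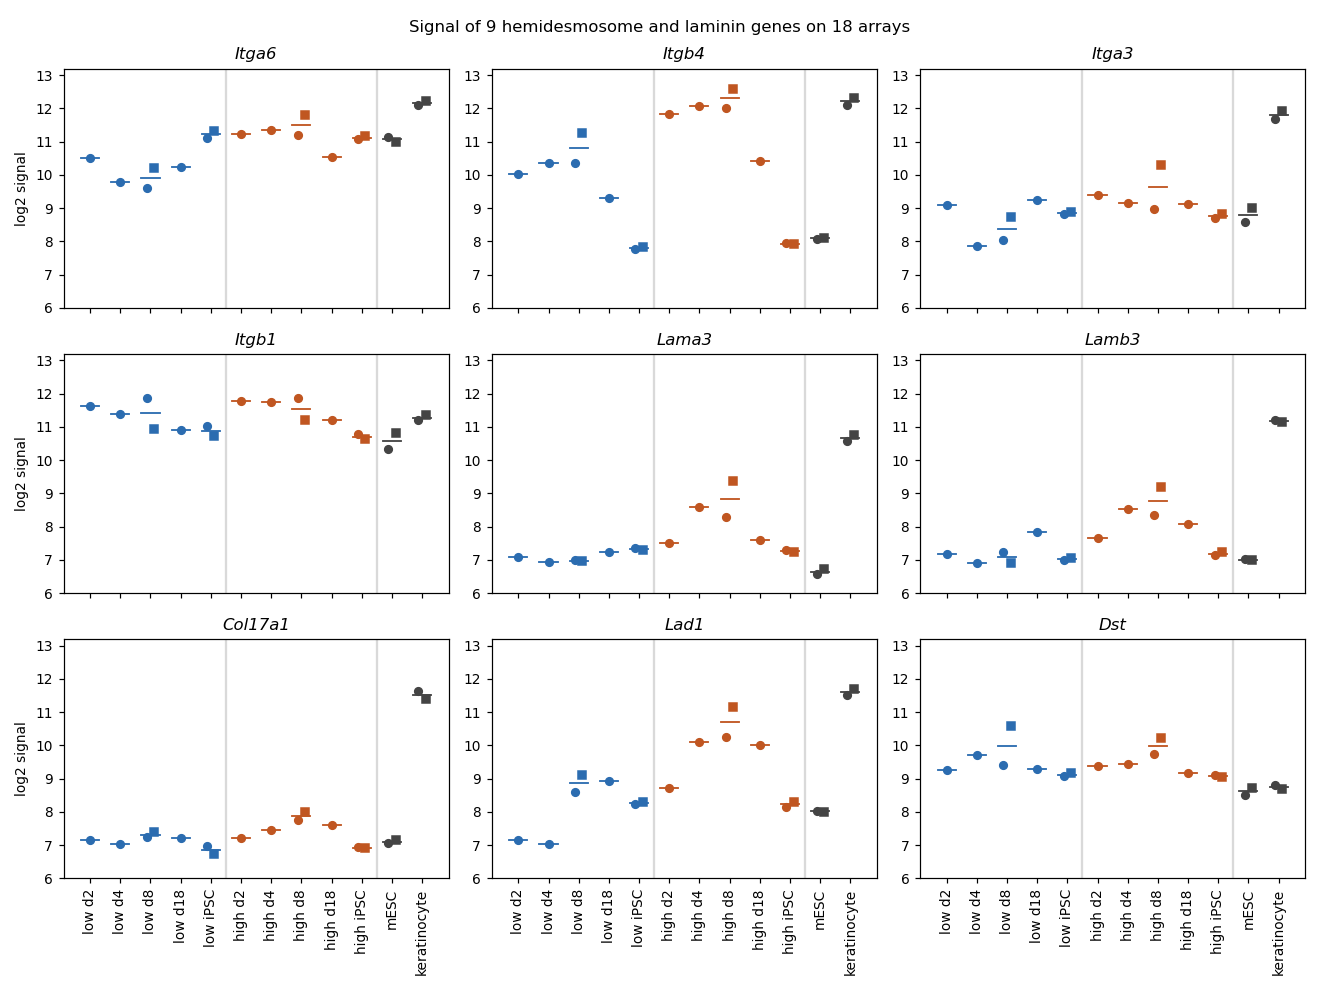
Log2 signal (vertical axis) of each of the 9 genes on the 18 arrays, by group (horizontal axis). Blue marks low-KLF4, orange high-KLF4 and grey mESCs and keratinocytes; circles are first or single arrays, squares second arrays, and horizontal lines group means. Keratinocytes are highest for 6 of the 9 genes, Itgb4 is as high in high-KLF4 day 8 cells as in keratinocytes, and Col17a1 stands apart only in keratinocytes.

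On day 8, 5 of the 9 genes were higher in high-KLF4 than in low-KLF4 cells and 0 were lower. Both chains of the hemidesmosome integrin, the laminin-332 chains Lama3 and Lamb3 and Lad1 were higher, by 1.52 to 1.85 on the log2 scale. The actin-linked partner Itgb1 differed by 0.12. Dst differed by -0.01, on a probe set that does not separate the keratin-linking isoform from the others. Of all named probe sets, 2.71% were called higher and 1.29% lower by the same fit (limma, adjusted p under 0.05). The median difference of the 9 genes was 1.52, beside -0.03 over all named probe sets. Both high-KLF4 arrays lay above both low-KLF4 arrays for 7 of the 9 genes, beside 16.6% of all.

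Itga6 had signals of 781 and 1183 in low-KLF4 cells and of 2375 and 3556 in high-KLF4 cells. It rose by 1.60 (SE 0.23, adjusted p = 0.0078 from limma, n = 2 arrays per group). Itgb4, which carries the long cytoplasmic tail that binds plectin, had signals of 1301 and 2435 against 4176 and 6204. It rose by 1.52 (SE 0.28, adjusted p = 0.0217 from limma). For both genes every high-KLF4 array lay above every low-KLF4 array. The Itgb4 call rests on the brighter high-KLF4 array, without which the difference was 1.23 (adjusted p = 0.123 from limma).

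Lama3 had signals of 127 and 125 in low-KLF4 cells and of 314 and 664 in high-KLF4 cells. The difference was 1.85 (SE 0.28, adjusted p = 0.0099 from limma). Lamb3 was at 150.5 and 121 against 328 and 579.7, a difference of 1.69 (SE 0.23, adjusted p = 0.0062 from limma). In low-KLF4 cells both laminin chains stayed near their levels in iPSC clones and mESCs, where Lama3 lay between 95.8 and 163 and Lamb3 between 128 and 150.2.

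Lad1 had signals of 388 and 558 in low-KLF4 cells and of 1215 and 2271 in high-KLF4 cells, and rose by 1.84 (SE 0.27, adjusted p = 0.0090 from limma). Col17a1 was at 150.4 and 169 against 216 and 257. Its difference of 0.56 (SE 0.13, adjusted p = 0.0585 from limma) missed the threshold. Itga3 was at 261 and 423 against 508 and 1269, a difference of 1.27 (SE 0.39, adjusted p = 0.133 from limma) that also missed it. Without the first high-KLF4 array both passed, at 1.93 for Itga3 (adjusted p = 0.00629) and 0.69 for Col17a1 (adjusted p = 0.0327).

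Itgb1 was at 3776 and 1968 in low-KLF4 cells and at 3712 and 2372 in high-KLF4 cells. Its difference had a 95% interval of -0.62 to 0.87. Dst was at 677 and 1531 against 851 and 1193, with an interval of -0.77 to 0.74. The arrays of the cassettes overlapped for both genes.

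The spread in these tests was estimated over all 18 arrays, and the day 8 pairs differed more than the other pairs. On the 4 day 8 arrays alone, the SEs of the 5 genes named as higher ran from 0.32 (Itga6) to 0.41 (Lama3). The SEs given above for these genes therefore understate the spread between day 8 arrays. The intervals of Itgb1 and Dst, and others here with day 8 cells, use the same pooled spread. Fitted on the 4 day 8 arrays alone, limma called 0 of the 9 genes and 0 of all probe sets after adjustment (adjusted p from 0.505 to 0.594 for the 5 genes named as higher), with 6 of the 9 higher at an unadjusted p under 0.05, beside 4.52% of all. The same count of 0 came from the methods' t-test after Benjamini-Hochberg adjustment. Unadjusted, the methods' t-test passed 0.05 for 0 of the 9, beside 5.41% of all. On the first arrays of both cassettes, with high fibroblast signal, 8 of the 9 genes were higher in high-KLF4 cells, all but Itgb1 (-0.02). On the second arrays 8 of 9 were higher, all but Dst, which was at 0.33 on the first and -0.36 on the second. The share of all named probe sets that were higher on each pair was not counted. For Itga6 the difference was 1.60 between the first arrays and 1.59 between the second, and for Itgb4 it was 1.68 and 1.35. The laminin chains differed less evenly, with 1.30 and 2.40 for Lama3 and 1.12 and 2.26 for Lamb3.

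**Figure D2:**
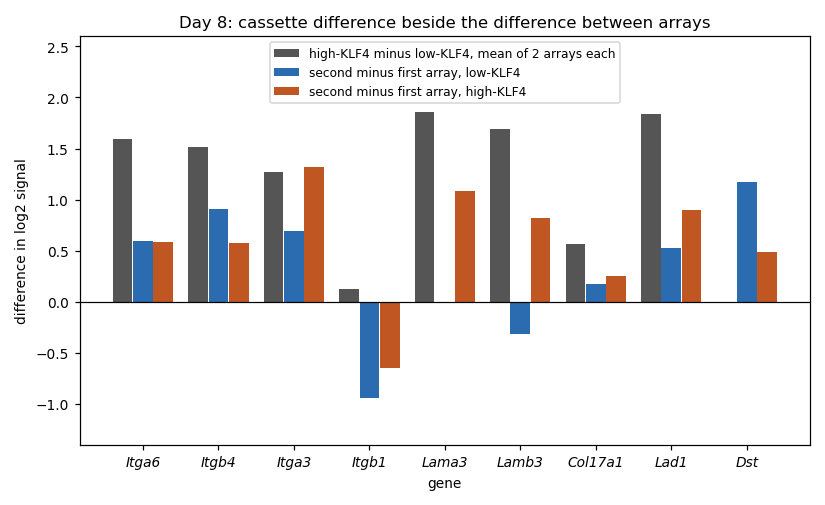
Differences in log2 signal on day 8 (vertical axis) for each gene (horizontal axis): high-KLF4 minus low-KLF4 means in grey, and second minus first array in blue for low-KLF4 and in orange for high-KLF4, with 2 arrays per cassette. The grey bar is the tallest for Itga6, Itgb4, Lama3, Lamb3, Col17a1 and Lad1. For Itga3 the high-KLF4 arrays differ by more than the cassettes do, and for Itgb1 and Dst the arrays of both cassettes do so.

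The genes also split by how they differed between the day 8 arrays. Itgb1 was lower on the second, fibroblast-poor array in both cassettes, by -0.94 in low-KLF4 and -0.65 in high-KLF4 cells. Itga6 (0.60 and 0.58), Itgb4 (0.90 and 0.57), Itga3 (0.70 and 1.32), Lad1 (0.53 and 0.90) and Dst (1.18 and 0.49) were higher on it in both. Lama3 and Lamb3 were higher on it only in high-KLF4 cells, by 1.08 and 0.82, and stood at -0.02 and -0.32 in low-KLF4 cells. Of the other integrin subunits, 16 of 18 were lower on the second array in low-KLF4 cells and 14 of 18 in high-KLF4 cells. These differences are between single arrays and have no test.

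Over the time course Itgb4 and Lad1 were the first to differ by 2-fold or more between the cassettes. On day 2, high-KLF4 cells had these 2 of the 9 genes at 2-fold or more above low-KLF4 cells, beside 1% of all named probe sets. Itgb4 was at 1034 in low-KLF4 and 3636 in high-KLF4 cells, and Lad1 at 142 and 421. The other genes were also higher in high-KLF4 cells on day 2, by 0.07 (Col17a1) to 0.72 (Itga6) on the log2 scale. On day 4, 6 of the 9 genes were at least 2-fold higher, beside 1.64% of all. Lad1 had its largest difference then, 3.09 on the log2 scale, with signals of 130.3 and 1109.

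Itga6 was at 875 and 2606 on day 4, Itga3 at 235 and 573, Lama3 at 122.7 and 383, and Lamb3 at 121 and 367. Their differences of 1.29 to 1.64 on day 4 had been 0.30 to 0.72 on day 2. By day 18 only Itgb4 (638 and 1371) and Lad1 (483 and 1041) exceeded low-KLF4 cells by 2-fold or more, beside 0.867% of all. The other 7 genes differed by -0.11 to 0.38 on that day. Each of these days has 1 array per cassette, so the values have no replicate check.

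**Figure D3:**
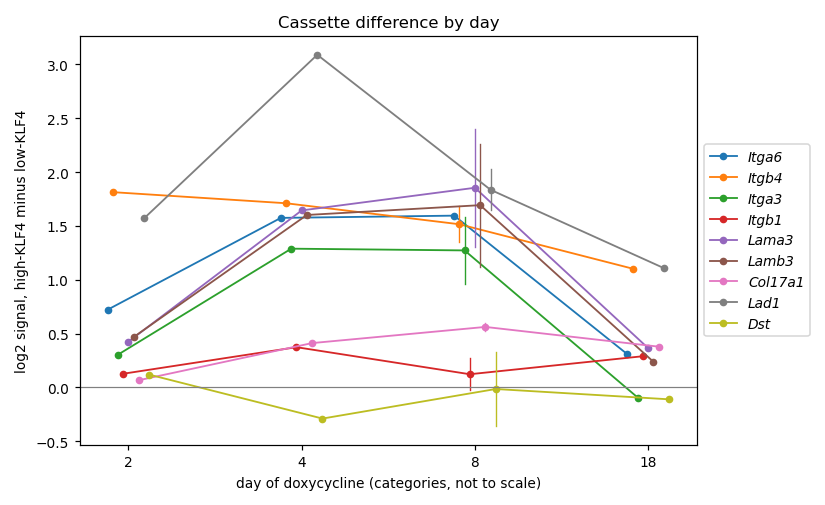
High-KLF4 minus low-KLF4 difference in log2 signal (vertical axis) by day (horizontal axis, not to scale) for the 9 genes. Days 2, 4 and 18 compare single arrays; day 8 shows the difference of means with a line from the lower to the higher of the differences between first arrays and between second arrays. Itgb4 and Lad1 lie above 1 on all 4 days, Itga6, Itga3, Lama3 and Lamb3 on days 4 and 8 only, and Col17a1, Itgb1 and Dst on none.

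Over all 10 mCherry+ arrays, with day in the model, limma called 0 of the 9 genes at an adjusted p under 0.05. It called 0.158% of all probe sets higher and 0.00427% lower. Itgb4 differed by 1.53 (SE 0.21, adjusted p = 0.0637 from limma) and Lad1 by 1.89 (SE 0.31, adjusted p = 0.088 from limma). At an unadjusted p under 0.05, 7 of the 9 genes were higher, all but Itgb1 and Dst, beside 8.71% of all. Itgb4 passed under limma-trend (adjusted p = 0.0286) and without the dimmest 30% of probe sets (adjusted p = 0.0354). High-KLF4 arrays lay above all low-KLF4 arrays, whatever the day, for Itga6 (1491 to 3556 against 781 to 1455) and Lama3 (181 to 664 against 123 to 151). These are 2 of the 9 genes, beside 1.12% of all.

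Levels in the high-KLF4 cells did not peak on the same array for all genes. The second day 8 array exceeded the day 4 array for 8 of the 9 genes, but the first did so for 4 of 9, namely Itgb1, Col17a1, Lad1 and Dst. Whether Itga6, Itgb4, Itga3, Itgb1, Lama3 and Lamb3 were higher on day 8 than on day 4 therefore turned on the array. Of these, Itgb1 alone was higher on the first array and lower on the second. Between days 8 and 2, with cassette in the model, 0 of the 9 genes were called by limma, beside 0.466% of all called higher and 0.543% lower. At an unadjusted p under 0.05, Lad1 (1.85) and Col17a1 (0.42) were higher, beside 5.87% of all.

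From day 8 to day 18, 1 of the 9 genes was called. Itgb4 fell by 1.69 (SE 0.28, adjusted p = 0.0132 from limma), beside 6.67% of all probe sets called lower and 5.16% higher. It went from 1301 and 2435 to 638 in low-KLF4 cells and from 4176 and 6204 to 1371 in high-KLF4 cells. Without the low-KLF4 day 18 array its adjusted p was 0.0679, and without the high-KLF4 one it was 0.0903. Lad1 was at 1041 in high-KLF4 cells on day 18, below both day 8 arrays, and at 483 in low-KLF4 cells, between the day 8 arrays. Its difference with cassette in the model was -0.31 (adjusted p = 0.736 from limma).

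Compared with iPSC clones of the same cassette, Itgb4 was the gene most raised on day 8 in both cassettes. In high-KLF4 cells it was higher than in clones A10 and H10 (249 and 241) by 4.38 (SE 0.28, adjusted p = 2.26e-05 from limma), a ratio of 20.8. Lad1 (2.47), Lamb3 (1.58), Lama3 (1.56) and Col17a1 (0.95) were higher too, making 5 of 9, beside 13.5% of all probe sets called higher and 14.7% lower. Itga3 (0.88), Itgb1 (0.83), Dst (0.90) and Itga6 (0.38) were not called. Day 8 arrays lay above the clones for 9 of the 9 genes, beside 35.1% of all probe sets. Itga6 had signals of 2158 and 2306 in these clones, and of 2375 and 3556 on day 8.

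In low-KLF4 cells, Itgb4 was higher than in clones A7 and A9 (219 and 229) by 2.99 (SE 0.28, adjusted p = 0.000255 from limma). Col17a1 was higher by 0.46 (adjusted p = 0.0438 from limma), a call lost when any of the 4 arrays was left out. Itga6 was lower by 2.48 times on day 8, with signals of 781 and 1183 against 2226 and 2548 (log2 difference -1.31, SE 0.23, adjusted p = 0.0056 from limma). Without clone A9 its adjusted p was 0.0539. The calls are 2 higher and 1 lower of 9, beside 8.43% and 10.8% of all.

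A direct test asked if the cassette difference on day 8 exceeded that in the clones. It gave 1.69 for Itga6 (SE 0.32, adjusted p = 0.0631 from limma), 1.87 for Lad1 (adjusted p = 0.0816), 1.91 for Lama3 (adjusted p = 0.0853) and 1.54 for Lamb3 (adjusted p = 0.089). The test called 0 of the 9 genes, beside 0.671% of all called higher and 0.154% lower, and 7 of the 9 were higher at an unadjusted p under 0.05, beside 6.29% of all. Between the clones of the cassettes, 0 of 9 genes and 0% of all were called by limma and by the methods' t-test, and 224 probe sets had an unadjusted p under 0.05. The differences of the 9 genes there ran from -0.17 to 0.16.

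The iPSC clones had levels near those of mESCs. Limma called 0 of the 9 genes between the 4 clones and mESCs, beside 2.02% of all probe sets called higher and 2.28% lower. Lama3 alone had an unadjusted p under 0.05, at 0.0272, beside 8.3% of all that were higher at that level. It was at 152 to 163 in the clones and at 95.8 and 105 in mESCs, a difference of 0.65 (SE 0.24, adjusted p = 0.202 from limma). The others differed by -0.23 to 0.48. Fitted on these 6 arrays alone, limma called Lama3 (adjusted p = 0.00232) and Dst (0.48, adjusted p = 0.0125) higher in the clones, beside 9.18% of all.

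Keratinocytes, which build hemidesmosomes in skin, had the highest group mean for 6 of the 9 genes. Against mESCs, 7 of 9 were higher, beside 17.7% of all probe sets called higher and 20.4% lower. Col17a1 went from 133 and 143 to 3176 and 2694, a difference of 4.41 (SE 0.13). Lamb3 (4.17), Itgb4 (4.11), Lama3 (4.02), Lad1 (3.60) and Itga3 (3.01) were higher by 8 times or more. Itga6 was higher by 1.09 (adjusted p = 0.0051 from limma) from 2247 and 2049.6 to 4367 and 4780.5. Itgb1 (0.70, adjusted p = 0.133) and Dst (0.12, adjusted p = 0.842) were not called. Dst had signals of 444 and 409.9 in keratinocytes, below every mCherry+ array (579 to 1531).

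**Figure D4:**
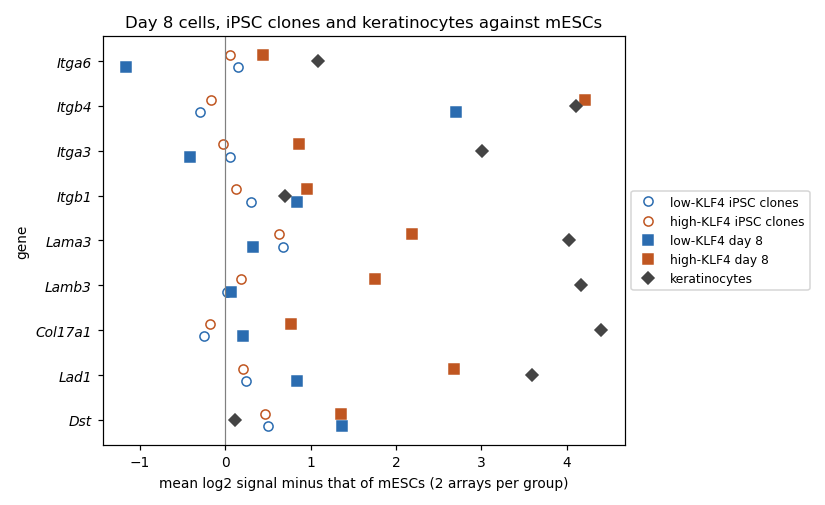
Mean log2 signal minus that of mESCs (horizontal axis) for each gene (vertical axis), with 2 arrays per group. Squares are day 8 cells, open circles iPSC clones and diamonds keratinocytes; blue is low-KLF4 and orange high-KLF4. The high-KLF4 day 8 cells lie at 4.21 for Itgb4, next to keratinocytes at 4.11, and at 0.77 for Col17a1, where keratinocytes lie at 4.41.

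High-KLF4 day 8 cells stood at very different points of the span from mESCs to keratinocytes. With mESCs at 0% and keratinocytes at 100% on the log2 scale, they were at 102% for Itgb4, 74.4% for Lad1, 54.3% for Lama3, 42.1% for Lamb3, 40.1% for Itga6, 28.6% for Itga3 and 17.5% for Col17a1. Low-KLF4 day 8 cells were at 65.6% for Itgb4, 23.4% for Lad1, 8.20% for Lama3, 4.77% for Col17a1 and 1.55% for Lamb3. They lay below mESCs for Itga3 (-13.7%) and Itga6 (-106%). Itgb1 and Dst, which were not called between mESCs and keratinocytes, have too short a span for this scale. Both cassettes' comparisons use the same keratinocyte arrays. The positions are those of means of 2 unlike day 8 arrays. Between the high-KLF4 arrays the log2 difference was 1.32 for Itga3, 1.08 for Lama3 and 0.58 for Itga6. The spans of these genes were 3.01, 4.02 and 1.09, so the order of the genes below Itgb4 is uncertain, with the places of Lad1 and Col17a1 included.

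In the direct test of high-KLF4 day 8 cells against keratinocytes, 5 of 9 genes were lower and 1 higher, beside 11.4% and 13.1% of all. Col17a1 (-3.63), Lamb3 (-2.42), Itga3 (-2.15) and Lama3 (-1.84) were lower. Lad1 was also lower (log2 difference -0.92, adjusted p = 0.0394 from limma). That call was lost without the first high-KLF4 array (-0.47, adjusted p = 0.135) and without either keratinocyte array. Itgb4 differed by 0.10, with a 95% interval of -0.53 to 0.73, and Itga6 by -0.65 (adjusted p = 0.0714 from limma). Dst was higher by 1.24 (adjusted p = 0.0255 from limma), which was lost without either keratinocyte array or the second high-KLF4 array.

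Low-KLF4 day 8 cells were lower than keratinocytes for 7 of the 9 genes, beside 12.4% of all called lower and 13.5% higher. The differences ran from -1.42 for Itgb4 and -2.25 for Itga6 to -4.11 for Lamb3 and -4.20 for Col17a1. Dst was higher by 1.25 (adjusted p = 0.0232 from limma), and this too was lost without either keratinocyte array. Itgb1 differed by 0.14 in low-KLF4 and by 0.26 in high-KLF4 cells and was called in neither.

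Few groups next to each other in the order of levels differed by more than 2 SE. For Itga6, Itga3, Lamb3 and Col17a1 the only such gap of 11 was between keratinocytes and the group after them, high-KLF4 day 8 cells. Lama3 had this gap and one between high-KLF4 days 4 and 18. Itgb4 had 2, with keratinocytes and the high-KLF4 cells of days 2 to 8 above the first, and mESCs and the iPSC clones below the second. Lad1 had 3, and Itgb1 and Dst had 0. Itgb1 was highest in high-KLF4 day 2 cells (3485) and Dst in low-KLF4 day 8 cells.

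Across the 12 group means, the integrin partners were less alike than the laminin chains. Pearson's r was 0.97 for Lama3 with Lamb3, and 0.94 for Lamb3 with both Itga3 and Col17a1. It was 0.26 for Itga6 with Itgb4, whose proteins form 1 receptor, and 0.13 for Itga3 with Itgb1. Itgb4 had its highest r among the 9 genes with Itgb1 (0.84). Itga6 had 0.01 with Itgb1, although α6 pairs with β1 as well. Dst had r from -0.46 to 0.57 with the others. These values describe 12 means that share arrays and normalization, and the 2 keratinocyte arrays set much of the span for Col17a1 and the laminins. Spearman's rho was 0.47 for Itga6 with Itgb4 and 0.86 in place of 0.51 for Itgb4 with Col17a1. By rho Itgb4 was thus closer to Col17a1 than to Itgb1 (0.71). Over the 18 arrays Itgb4 had its highest r with Lad1 (0.72), beside 0.70 with Itgb1.

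Of 19929 other named genes, those closest in pattern were sought for each gene by r over the 12 group means. For Lama3 and Lamb3 the list was led by Trim29 (r = 0.98 and 0.99) and also held Fam83g in both, Serpinb5 for Lama3 and Mst1r for Lamb3. For Col17a1 it was Il1a, Slc6a14 and Ces2f, for Lad1 Afap1l2 (0.96), Tgm1 and Cnksr1, and for Itga3 Ppp1r13l (0.96), Ern1 and Ptpn23. Itgb4 was closest to S100a16 (0.98), Micu2 and Elf1, and Itga6 to Rassf7 (0.95), Tor1aip2 and Msmo1. Itgb1 was closest to Cryab (0.98), Slc36a4 and Surf4, and Dst to Peli2 (0.98), Ccdc141 and Nav1. No gene was among the closest 3 of both Itga6 and Itgb4.

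The rest of the same structures was read from lists of related genes. Of 9 other measured hemidesmosome and anchoring genes, 2 were higher in high-KLF4 day 8 cells and 0 lower, with a median difference of 0.02. Krt14, a keratin of basal cells, was at 315 and 251 in low-KLF4 and at 3780 and 5459 in high-KLF4 cells, a difference of 4.01 (SE 0.18). Its partner Krt5 differed by 0.07 (adjusted p = 0.883 from limma) and was lower than in keratinocytes by -6.06. Cd151, a tetraspanin that associates with α6β4 and α3β1, was higher by 0.57 (SE 0.11, adjusted p = 0.0268 from limma). Plec differed by 0.67 (adjusted p = 0.0736 from limma) between the cassettes and by 0.00 between high-KLF4 day 8 cells and keratinocytes. Col7a1, which encodes the anchoring fibril collagen, differed by -0.10 (adjusted p = 0.914).

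The other laminin and basement membrane genes gave a different count. Of 20, 0 were higher and 2 lower on day 8 in high-KLF4 cells, with a median of -0.20. Lama1, the α chain of embryonic laminin-111, was at 640 and 1149 in low-KLF4 cells and at 300.3 and 426 in high-KLF4 cells, a difference of -1.26 (adjusted p = 0.0377 from limma). Bcam, a receptor for laminin α5, was at 249 and 331 against 155 and 145, a difference of -0.94 (adjusted p = 0.0057 from limma). Among 18 other integrin subunits and 14 focal adhesion linkers, limma called 0, with medians of 0.17 and 0.16. An unadjusted p under 0.05 was found for 4 of the 18 (Itga2, Itga7, Itgb3 and Itgb6) and 3 of the 14 (Parvb, Actn1 and Actn4), all higher in high-KLF4 cells. Of the 23410 named probe sets, 2134 were higher at that level, and 16.2% passed it in either direction.

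In keratinocytes against mESCs, 5 of the 9 other hemidesmosome and anchoring genes were higher, led by Krt5 (6.97) and Krt14 (6.32), and Frem2 was lower (-1.14). Of the 20 laminin and basement membrane genes, 4 were higher, with Lama5 (1.24) and Lama4 (1.00) the most, and 4 lower, with Nid2 (-4.12) and Lama1 (-1.87) the most. Of the other integrin subunits, 6 of 18 were higher, led by Itgb6 (5.18) and Itga2 (4.21), and 4 lower, with Itga9 (-2.04) and Itgb3 (-0.76) the most. Of the focal adhesion linkers, 7 of 14 were higher, led by Parva (1.89) and Zyx (1.55), and 3 lower, with Parvb (-3.21) and Tln2 (-1.23) the most. Beside 17.7% higher and 20.4% lower over all named probe sets, the laminin and basement membrane list was at the background in both directions.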

How the data were processed

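Total RNA was amplified, labelled and hybridised to Affymetrix GeneChip Mouse Gene 1.0 ST arrays. The deposited values are intensities that the authors normalized with RMA in GeneSpring, without a log step. They run from 20.2 to 19538.7, and the medians of the arrays from 139.4 to 161.6. No detection call comes with them. RMA equalises the distributions of the arrays, so levels are relative to the other genes on an array, and levels of different probe sets were not compared. The number of arrays limits the precision. Coordinates on GRCm38.p6 come from the RefSeq table used for naming.

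Log2 was taken of the deposited intensity. Of 28853 probe sets, 21789 have 1 gene symbol, 1621 several and 5443 none, and the 23410 named ones were tested. Each of the 9 genes had 1 probe set with its symbol alone. A limma fit (limma 3.58.1, R 4.3.3) of 18 arrays in 12 groups gave 9 contrasts, with 6 residual and 2.25 prior degrees of freedom. A second fit of cassette and day over the 10 mCherry+ arrays gave 3 more, with 5 residual and 2.08 prior degrees of freedom. Groups with 1 array took their spread from groups with 2. Benjamini-Hochberg adjustment ran over all named probe sets at 0.05, two-sided. Days 2, 4 and 18 have single arrays, and there 2-fold was the limit for counts. Contrasts that share day 8, iPSC or keratinocyte arrays are not independent.

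Related genes were named by rule: the 2 largest rises and 2 largest falls per list past the test in the day 8 and the keratinocyte comparisons, and always Plec, Cd151 and Col7a1 (a further gene of this rule is not reported here), besides the 3 genes of highest r for each gene. Krt5 in the day 8 comparison, and genes at an unadjusted p under 0.05, were chosen for naming with their values known. The genes, lists and tests were chosen with earlier results of these data known. Lists were counted and not tested as sets. Marker lists of differentiated keratinocytes, endothelial and immune cells were also read. On day 8, high-KLF4 minus low-KLF4, 1 of 7, 0 of 5 and 0 of 5 of these were higher and none lower, and of the 12 pluripotent cell markers 3 were higher and 2 lower.

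On simulated data (23410 probe sets) the day 8 comparison found 74 of 100 true log2 changes of size 1, found 93 of 100 of size 2, and made 8 false calls. The simulated noise was independent between arrays and had 1 spread per probe set for all groups. The real day 8 pairs differed more than other pairs, and their differences went together in both cassettes (r = 0.74). The simulated counts therefore check the code and do not give the error rates of the real day 8 comparison. Alternatives were leaving out the dimmest 30% of probe sets, a second quantile normalization, limma-trend, the compared arrays alone, the methods' t-test, a replicate block and each array left out in turn. Counts and motif matches used Python 3.11.15 (pandas 2.3.3, scipy 1.17.1), and matplotlib 3.10.9 drew the figures.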

Additional observations from a re-analysis of the deposited data

How the results depend on the processing

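The pattern of the report rests on 2 arrays per group, and no detection limit is known for Lama3, Lamb3 and Col17a1. On day 8, 5 of the 9 genes were higher in high-KLF4 cells without the dimmest probe sets, after a second quantile normalization and under limma-trend. Fitted on the compared arrays alone, the count was 0 for that comparison, 1 higher and 0 lower for low-KLF4 day 8 cells against their clones, 2 lower for high-KLF4 day 8 cells against keratinocytes, 0 higher for low-KLF4 day 8 cells against keratinocytes, and 2 higher for iPSC clones against mESCs. The methods' t-test after adjustment gave 0 in each comparison with day 8 cells, in both directions, and 1 higher for iPSC clones against mESCs. For keratinocytes against mESCs, that t-test lost Itga6 (adjusted p = 0.0582) and Itga3 (adjusted p = 0.0572). On the compared arrays alone, limma lost Lama3 for high-KLF4 day 8 cells against their clones (adjusted p = 0.0703). It also lost Itgb4 for low-KLF4 day 8 cells against keratinocytes (adjusted p = 0.0957), and it called Itgb1 higher in keratinocytes than in mESCs (adjusted p = 0.0292). Under limma-trend, 1 gene was higher for low-KLF4 day 8 cells against their clones. The comparison of the cassettes over days and that of day 8 with the clones each called 1 gene under limma-trend and 1 without the dimmest 30%. The cause of these moves was not tested.

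With a replicate block for the number of the day 8 arrays, 7 of the 9 genes were higher on day 8 in high-KLF4 cells, and 1752 of all probe sets in place of 634. The count was 9 for high-KLF4 day 8 cells against their clones, 5 for low-KLF4 ones, 6 for the difference between day 8 and the clones, 2 for the cassettes over days, 3 for day 8 against day 2, and 3 lower for day 18 against day 8. The counts over all probe sets also grew. In the same order they were 4975 in place of 3165, 4216 in place of 1974, and 676 in place of 157. Then came 415 in place of 37, 1107 in place of 109, and 2964 lower in place of 1562. The labels do not say that the numbers mark shared cultures. The second-minus-first differences of the cassettes had r = 0.74 over 23410 probe sets, against -0.03 to 0.02 with mESCs or keratinocytes, and there are only 2 pairs.

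With each array left out in turn, the count on day 8 ran from 4 to 7, while that of all named probe sets called higher ran from 384 to 1459. The count of the 9 genes ran from 0 to 5 for the difference between day 8 and the clones (41 to 843 of all), from 5 to 6 for high-KLF4 day 8 cells against their clones, from 1 to 2 higher and 0 to 1 lower for low-KLF4 ones, from 0 to 1 higher and 4 to 6 lower for high-KLF4 day 8 cells against keratinocytes, from 0 to 1 higher for low-KLF4 ones, and from 0 to 2 lower for day 18 against day 8. It stayed at 7 for keratinocytes against mESCs. The sign turned in 39 of 1215 values of single genes under an alternative, none with an adjusted p under 0.05 on either side. After the second quantile normalization Itga3 was at -0.0225 between clones and mESCs and Dst at -0.0481 for day 8 against the clones. The other turns came with an array left out. On day 8 between the cassettes, Dst ran from -0.60 to 0.57 and Itgb1 from -0.35 to 0.59. For day 8 against the clones, Dst ran from -0.56 to 0.61 and Itgb1 from -0.18 to 0.76. Against keratinocytes, high-KLF4 cells ran from -0.0623 to 0.58 for Itgb1 and from -0.19 to 0.39 for Itgb4, and low-KLF4 cells from -0.33 to 0.61 for Itgb1. Lamb3 ran from -0.12 to 0.20 in low-KLF4 cells against their clones, and Dst from -0.25 to 0.11 between the cassettes over days. Between the clones of the cassettes, Col17a1 ran from -0.0611 to 0.20, Dst from -0.0835 to 0.0032, Itga6 from -0.19 to 0.0029 and Lad1 from -0.10 to 0.0367. Clones against mESCs ran from -0.20 to 0.23 for Itga3 and from -0.0256 to 0.46 for Itgb1. Day 8 against day 2 ran from -0.58 to 0.0835 for Itga3 and from -0.43 to 0.11 for Itga6. Day 18 against day 8 ran from -0.39 to 0.74 for Itga3, -0.85 to 0.21 for Itga6, -0.80 to 0.18 for Lad1, -1.03 to 0.0508 for Lama3 and -0.53 to 0.60 for Lamb3. The alternative with another probe set per gene could not be run, since each gene has 1. Without day 18 or without day 8, added after seeing the data, the cassette comparison over days called 0 of the 9 genes. Over 18 arrays or with Spearman's rho, 11 of the 36 correlations between the genes moved by over 0.2.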
